A study of Homo sapiens with 8 samples.

Results

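The genes for the creatine transporter (SLC6A8), creatine kinase B (CKB), guanidinoacetate methyltransferase (GAMT), glycine amidinotransferase (GATM), sarcomeric mitochondrial creatine kinase (CKMT2) and glutamine synthetase (GLUL) were examined after knockdown (KD) of PRMT9, an arginine methyltransferase. They are 6 of the 57722 genes that both count tables list. SLC6A8, CKB and GLUL were chosen by their log2 fold changes in these libraries, as their mRNA rose after PRMT9 KD in Molm13 cells and did not rise in THP1 cells, so their values in these comparisons are given as a description without a test. GAMT, GATM and CKMT2 were added by their role in the pathway, with earlier results of these data known. Tests are given for those that could be tested.

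Polyadenylated RNA was sequenced from Molm13 and THP1, both human acute myeloid leukemia (AML) cell lines. Each line carried either a control hairpin (shCtrl, genotype given as WT) or a hairpin against PRMT9 (shPRMT9, genotype given as PRMT9 knockdown), with 2 libraries per group and 8 in all. All groups received Dox (doxycycline) induction, controls included. The labels do not say whether the libraries of a group came from separate cultures, nor whether shPRMT9-1 and shPRMT9-2 are different hairpins, so the errors and p-values measure the spread between these libraries, which may be technical.

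Creatine is made in a pair of steps. GATM transfers the amidino group of arginine to glycine, which gives guanidinoacetate and ornithine, and GAMT methylates guanidinoacetate with S-adenosylmethionine. SLC6A8 imports creatine from outside the cell together with sodium and chloride. Creatine kinases, CKB in the cytosol of brain and many other tissues and CKMT2 in the mitochondria of heart and skeletal muscle, move phosphate between ATP and creatine and so buffer ATP. GLUL makes glutamine from glutamate and ammonia with ATP, and cells use glutamine for nucleotides, amino acids and the refilling of the citric acid cycle.

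Library totals ranged from 18720950 to 27356870 reads assigned to genes. PRMT9 had 332 and 289 reads in the Molm13 shCtrl libraries and 41 and 56 in shPRMT9, and in THP1 it had 317 and 352 reads against 60 and 68. Its log2 fold change was -2.68 ± 0.135 (SE) in Molm13 and -2.29 ± 0.131 in THP1 (edgeR quasi-likelihood test, FDR 1.2e-21 and 3.7e-14). All 8 myeloid marker genes had over 3 reads in each library, but their summed level moved with PRMT9 KD, from 1278-1284 to 1885-1891 CPM (reads scaled to library size) in the Molm13 libraries, and in THP1 from 2618-2662 to 3916-4069 CPM, and its part in the results was not tested. LYZ held most of the sum in THP1 and the largest share of it in Molm13, with 633 CPM in shCtrl and 1002 in shPRMT9 in Molm13 against 1884 and 3078 in THP1. The rise was not that of LYZ alone. For CSF1R and ITGAM the Molm13 shCtrl means were 14.7 and 30.1 CPM, against 61.0 and 116 after PRMT9 KD. The THP1 shCtrl means of these genes were 67.8 and 23.0 CPM, against 138 and 51.0. SPI1 and CD33 were also higher after PRMT9 KD in each line. MPO went the other way, from 61.0 to 41.2 and from 7.49 to 4.23 CPM, as did CEBPA in THP1, from 350.4 to 321 CPM. The monocyte gene CD14 was low, at 0.251 and 0.378 CPM in Molm13 shCtrl and shPRMT9 and at 0.899 and 4.76 CPM in THP1. Erythroid and T cell markers summed to at most 0.273 and 0.214 CPM. The summed B cell list was 42.6-42.8 CPM in Molm13 shCtrl and 39.5-40.6 in shPRMT9, against 4.02-4.64 and 12.6-14.1 in THP1, and PAX5 held most of it. OCI appears in the deposited name of each THP1 library, and the labels do not explain it. MEIS1, a gene that MLL fusions keep active, was at 0.208 CPM in THP1 shCtrl against 73.4 CPM in Molm13 shCtrl, while HOXA9 was at 53.4 and 62.2 CPM. The names Molm13 and THP1 below are those of the labels. In bulk RNA, fewer cells of a type and less RNA per cell cannot be told apart.

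The promoters of the 3 genes chosen for their rise are shown because these genes changed together in Molm13. RefSeq on GRCh38.p14 held promoter sequence for 5 of the 6 genes, with 250 bases before and 50 after the start of the transcript. The windows are chrX:153687676-153687975 on the plus strand for SLC6A8, chr14:103522781-103523080 on the minus strand for CKB and chr1:182391741-182392040 on the minus strand for the outer of the GLUL starts. The sequences run 5′ to 3′ along the gene's strand, and capitals mark GGGCGG (a GC box), CCAAT and TATAAA on either strand, which at 1 place in CKB stand end to end without a gap.
SLC6A8: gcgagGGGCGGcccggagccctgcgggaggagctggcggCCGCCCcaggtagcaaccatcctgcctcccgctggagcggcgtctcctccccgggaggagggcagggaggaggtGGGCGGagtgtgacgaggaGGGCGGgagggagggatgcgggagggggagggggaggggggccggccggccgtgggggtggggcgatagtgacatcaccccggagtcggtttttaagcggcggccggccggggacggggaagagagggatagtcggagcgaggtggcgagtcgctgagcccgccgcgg
CKB: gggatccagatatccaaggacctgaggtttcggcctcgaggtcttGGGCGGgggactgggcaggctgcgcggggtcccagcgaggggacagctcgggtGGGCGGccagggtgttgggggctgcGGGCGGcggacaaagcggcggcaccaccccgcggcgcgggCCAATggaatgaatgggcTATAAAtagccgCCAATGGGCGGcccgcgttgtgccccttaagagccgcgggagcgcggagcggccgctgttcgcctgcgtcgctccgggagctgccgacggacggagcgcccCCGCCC
GLUL: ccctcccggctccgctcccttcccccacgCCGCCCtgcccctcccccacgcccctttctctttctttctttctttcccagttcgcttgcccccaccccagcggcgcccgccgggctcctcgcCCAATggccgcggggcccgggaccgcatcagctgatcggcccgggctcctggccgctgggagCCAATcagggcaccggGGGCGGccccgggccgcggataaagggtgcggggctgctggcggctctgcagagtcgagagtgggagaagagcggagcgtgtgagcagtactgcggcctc

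All 3 sequences were rich in G and C, at 75.3% for SLC6A8, 72.3% for CKB and 72.7% for GLUL, against a median of 58.7% over 34943 promoter windows of the same length. SLC6A8 held 4 GC boxes and neither CCAAT nor TATAAA. CKB held 5 GC boxes, 2 CCAAT and 1 TATAAA, and GLUL held 2 GC boxes and 2 CCAAT. At least 1 GC box was present in 44.9% of all windows and at least 4 in 9.02%, while CCAAT was in 34.6% and TATAAA in 11.6%. ACGTG and GCGTG, the core letters bound by hypoxia-inducible factors, were absent from the SLC6A8 and CKB windows on both strands, and the outer GLUL window held 3. The inner GLUL window, chr1:182391292-182391591, held 1 such core, 2 GC boxes and no CCAAT. In 48.4% of all windows at least 1 of these cores was found and in 10.1% at least 3. The window of GATM, a gene called in neither line, had 73.3% G and C, 3 GC boxes, 1 CCAAT and 1 core. That of CKMT2, which was not detectable, had 65.3% G and C, 1 GC box, 1 CCAAT, 1 TATAAA and 1 core. Richness in G and C and the presence of these boxes were therefore not particular to the chosen genes. A match of letters is a description and not a site of binding.

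SLC6A8 (ENSG00000130821) lies at chrX:153688099-153696593 on the plus strand of hg38, as deposited. It had 396 and 308 reads in the Molm13 shCtrl libraries and 3636 and 4260 in shPRMT9. As RPKM, which scales reads to library size and exon length, these levels were 3.52 and 2.86 against 35.3 and 36.4. The shPRMT9 libraries therefore stood far above the controls, and the difference between the 2 libraries of a group was small beside it. The fitted log2 fold change was 3.49 ± 0.0522 (SE), an 11.2-fold rise, and leaving out any 1 library gave 3.35 to 3.64. SLC6A8 went from a level above 41.1% of the genes tested to one above 91.5%.

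In THP1 the transporter did not share this rise. SLC6A8 had 282 and 318 reads in shCtrl and 235 and 221 in shPRMT9, or 2.00 and 2.08 against 1.70 and 1.62 RPKM. Both shPRMT9 libraries lay below both controls, with a log2 fold change of -0.30 ± 0.1 (SE). The 2 arms were apart in this way, in either direction, for 66.0% of all genes tested in THP1 and 81.9% in Molm13. Ordered by mean RPKM, the groups were Molm13 shPRMT9 (35.8 ± 0.744, SD, n = 2), Molm13 shCtrl (3.19 ± 0.469), THP1 shCtrl (2.04 ± 0.0556) and THP1 shPRMT9 (1.66 ± 0.0554), and no neighbours in this order overlapped. RPKM values were scaled within each line, so levels set across the lines rest on 2 separate scalings. The counts of each line were also deposited separately, so in levels set across the lines, line and handling cannot be told apart. The plot of RPKM by library shows these levels for each of the 6 genes.

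**Figure D1:**
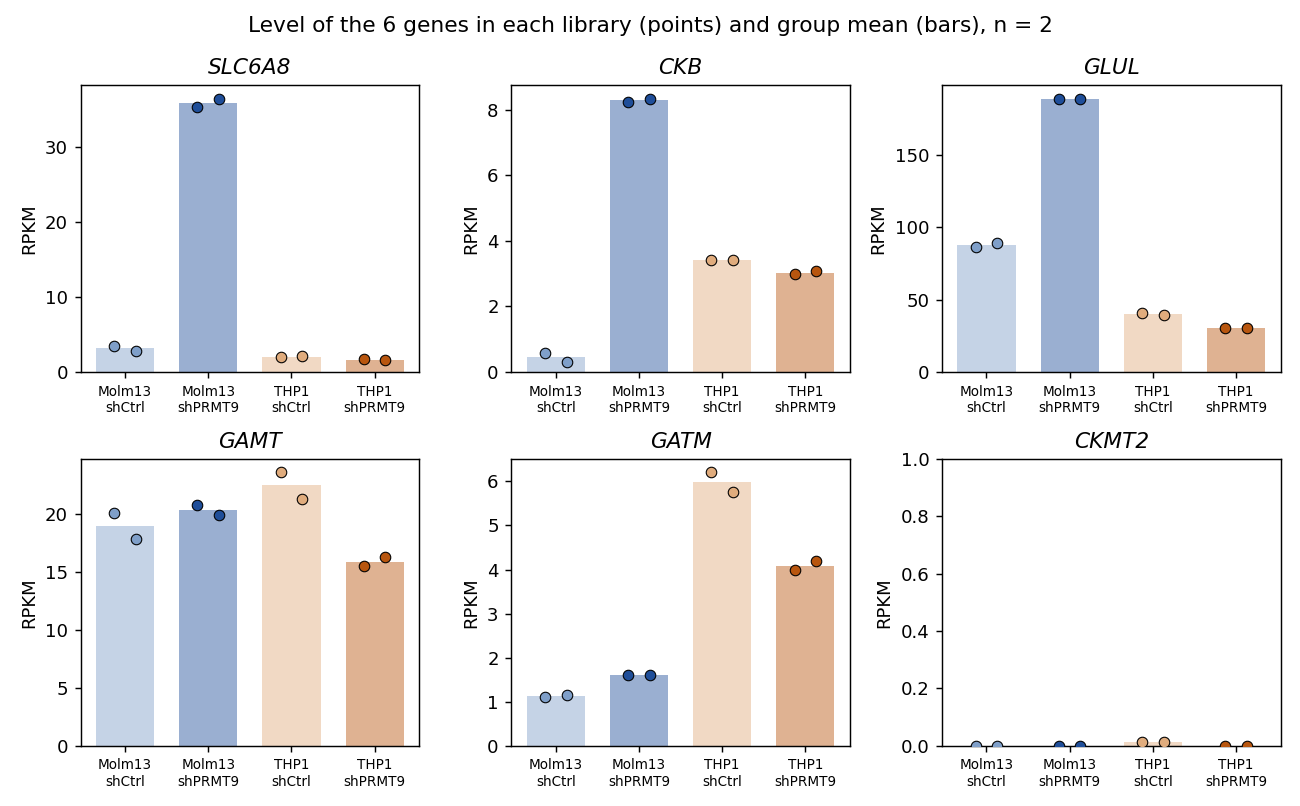
RPKM of each of the 6 genes (vertical axes start at 0 and differ between panels) in the 4 groups; points are libraries and bars are means of 2 libraries. SLC6A8, CKB and GLUL are highest in Molm13 shPRMT9, GAMT and GATM are highest in THP1 shCtrl, and CKMT2 is at or next to 0 throughout.

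CKB (ENSG00000166165) lies at chr14:103519659-103523111 on the minus strand. In Molm13 shCtrl its counts were low, with 32 and 16 reads. After PRMT9 KD it had 411 and 474 reads. The corresponding levels were 0.587 and 0.306 RPKM against 8.22 and 8.34 RPKM, so the uncertainty of the fold lies mostly in the control libraries. The log2 fold change was 4.20 ± 0.149 (SE), or 18.3-fold, and it ranged from 3.82 to 4.74 when 1 library was left out. By rank CKB moved from above 11.8% to above 64.3% of the genes tested.

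In the shCtrl libraries CKB mRNA was higher in THP1 than in Molm13, where line and handling cannot be told apart. The shCtrl libraries had 234 and 253 reads, equal to 3.42 and 3.41 RPKM, and the shPRMT9 libraries had 201 and 204, equal to 2.99 and 3.08 RPKM. The log2 fold change was -0.17 ± 0.108 (SE). Between the shCtrl groups CKB was higher in THP1 than in Molm13 by 2.92 ± 0.179 on the log2 scale. The order of mean RPKM was Molm13 shPRMT9 (8.28 ± 0.0795, SD, n = 2), THP1 shCtrl (3.41 ± 0.00858), THP1 shPRMT9 (3.03 ± 0.062) and Molm13 shCtrl (0.446 ± 0.198), again without overlap between neighbours. Such separation of shPRMT9 from shCtrl was found for 81.9% of all genes tested in Molm13 and 66.0% in THP1. Thus the line in which CKB was higher after PRMT9 KD was the one that began with less of it.

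CKB was nearly the whole of the creatine kinase mRNA. Of the reads on CKB, CKM, CKMT1A, CKMT1B and CKMT2, it took 94.1% in both Molm13 shCtrl libraries, 99.5% and 99.4% in Molm13 shPRMT9, 95.1% in both THP1 shCtrl libraries and 93.1% and 94.9% in THP1 shPRMT9. The other 4 kinases together had 1 to 3 reads in each Molm13 library and 11 to 15 in each THP1 library, nearly all on CKM, the cytosolic muscle form. The higher share in Molm13 shPRMT9 came with more CKB reads, not fewer reads on the others. CKM could be tested in THP1 alone and had a log2 fold change of 0.33 ± 0.454 (SE, edgeR FDR 0.62).

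CKMT2 (ENSG00000131730, chr5:81233285-81266397, plus strand) was not detectable at this depth. It had no read in 6 libraries and 1 read in each THP1 shCtrl library. A count of 0 allows up to 3 reads, which is 0.108 to 0.16 CPM depending on the library, and this limit covers counting error only. No fold change is given. The overlapping antisense gene CKMT2-AS1 had 46 to 131 reads per library.

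GLUL (ENSG00000135821, chr1:182381704-182392206, minus strand) was the most abundant of the 6 genes in every group. It had 15964 and 15788 reads in Molm13 shCtrl and 31979 and 36323 in shPRMT9. Per length this was 86.5 and 89.2 RPKM against 189.1 and 188.8 RPKM. The groups did not overlap, as was true of 81.9% of all genes tested in Molm13. The log2 fold change of 1.10 ± 0.0222 (SE) equals 2.15-fold. As GLUL began above 96.9% of the genes tested, its rank moved little, to 98.7%.

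In THP1 glutamine synthetase mRNA was lower after PRMT9 KD. GLUL had 9532 and 9907 reads in shCtrl and 6978 and 6866 in shPRMT9, or 41.2 and 39.4 against 30.7 and 30.6 RPKM. Both shPRMT9 libraries were below both controls, with a log2 fold change of -0.40 ± 0.0322 (SE). Groups without overlap, in either direction, were found for 66.0% of all THP1 genes. The groups ranked Molm13 shPRMT9 (189 ± 0.223, SD, n = 2), Molm13 shCtrl (87.9 ± 1.96), THP1 shCtrl (40.3 ± 1.23) and THP1 shPRMT9 (30.6 ± 0.0446), each apart from the next.

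Reads from near-identical copies bear on the GLUL level. GLULP4, a copy by its name, had 265 and 196 reads in Molm13 shCtrl and 454 and 524 in shPRMT9, while THP1 libraries had 1 to 4. Relative to GLUL reads, the 4 listed copies together had 2.14% and 1.69% in Molm13 shCtrl, 1.76% and 1.85% in Molm13 shPRMT9, and 0.0105% to 0.0573% in THP1. The tables differed in this respect as a whole, since 5896 genes named as copies took 2.66-2.85% of the reads in Molm13 and 0.244-0.255% in THP1. With the copies' reads added to GLUL, an alternative chosen after seeing the data, its log2 fold change was 1.10 in Molm13 and -0.40 in THP1. The copies SLC6A10P and CKBP1 had at most 2 reads in any library.

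Between the lines, the log2 fold change of SLC6A8 in THP1 minus that in Molm13 was -3.77 ± 0.115 (SE), that of CKB was -4.36 ± 0.201 and that of GLUL was -1.49 ± 0.0377. These differences are what the genes were chosen for and carry no test. In Molm13 the rule for a called gene (fold above 1.5, FDR below 0.05 and RPKM above 1 in at least 1 library) was met by 22.8% of the 16446 genes tested, 11.4% in the upward direction. In THP1 it was met by 6.22% of 16294 genes, 3.83% upward and 2.39% downward. GAMT and GATM, added by role but with earlier results of these data known, met it in neither line.

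The enzymes of creatine synthesis were added by role, though with earlier results of these data known. GATM (ENSG00000171766, chr15:45361124-45402327, minus strand), the first enzyme, had 149 reads in each Molm13 shCtrl library and 199 and 228 in shPRMT9. Its levels were 1.10 and 1.14 against 1.60 and 1.61 RPKM, with no overlap, as was true of 81.9% of all genes tested in Molm13. GATM rose by 0.52 ± 0.111 on the log2 scale (SE, edgeR FDR 7.3e-05), which is 1.43-fold and under the fold limit of 1.5.

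In THP1 GATM moved the other way. It had 1057 and 1063 reads in shCtrl and 667 and 692 in shPRMT9, or 6.21 and 5.75 against 3.98 and 4.19 RPKM. It fell by 0.55 ± 0.0636 on the log2 scale (SE, edgeR FDR 6.1e-08), or 1.46-fold. The difference between the lines was -1.05 ± 0.131 (SE, edgeR interaction FDR 3.4e-11), a test that 42.2% of 19288 genes passed, 19.4% in the direction lower in THP1. Without knockdown, THP1 had more GATM mRNA than Molm13 by 2.42 ± 0.0866 on the log2 scale (SE, edgeR FDR 1.6e-44), in a comparison that 82.8% of genes passed. Line and handling cannot be told apart in it. The order of mean RPKM was THP1 shCtrl (5.98 ± 0.321, SD, n = 2), THP1 shPRMT9 (4.09 ± 0.147), Molm13 shPRMT9 (1.61 ± 0.00795) and Molm13 shCtrl (1.12 ± 0.0338), with no overlap between neighbours.

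GAMT (ENSG00000130005, chr19:1397084-1401570, minus strand), the methyltransferase of the final step, changed little in Molm13. It had 714 and 610 reads in shCtrl and 677 and 738 in shPRMT9, or 20.04 and 17.9 against 20.7 and 19.9 RPKM, and the groups overlapped. The log2 fold change was 0.10 ± 0.063 (SE, 95% interval -0.03 to 0.22, edgeR FDR 0.17). Without shCtrl library 1 it was 0.18 with an FDR of 0.034, and without each of the other libraries it did not pass.

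GAMT fell in THP1, from 1054 and 1034 reads to 682 and 704. The levels were 23.6 and 21.3 RPKM in shCtrl and 15.5 and 16.3 RPKM in shPRMT9. The fall was by 0.50 ± 0.0649 on the log2 scale (SE, edgeR FDR 4.5e-07), or 1.41-fold, again under the fold limit. The lines differed by -0.58 ± 0.0926 (SE, edgeR interaction FDR 7.6e-08). Mean levels were 22.5 ± 1.60 RPKM in THP1 shCtrl (SD, n = 2), 20.3 ± 0.614 in Molm13 shPRMT9, 19.0 ± 1.54 in Molm13 shCtrl and 15.9 ± 0.515 in THP1 shPRMT9, and the 2 Molm13 groups in the middle did not differ beyond their spread. For GAMT and GATM the THP1 groups did not overlap, which was so, in either direction, for 66.0% of all THP1 genes.

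A list of 48 further genes covered the substrates and neighbours of these enzymes. It was drawn up with earlier results of these data known, so its counts beside all genes are a description. Most genes named from it below are, per list and line, called genes with the largest changes. The others were added after their values were seen. The FDR of a named gene is therefore a description too, as it was bound up with the choice. Of the 37 that could be tested in Molm13, 1 was called higher and 18 lower, against 11.4% and 11.3% of all genes tested. Their median log2 fold change was -0.67, where that of all genes was 0.000472. In THP1, 2.39% of all genes tested were called lower and 3.83% higher, so a short list without a call says little about its genes. Of the 39 listed genes that could be tested there, 1 was called lower and 0 higher by edgeR, with a median of -0.12. At an unadjusted p under 0.05 with the same fold and RPKM limits these counts were again 1 and 0, DESeq2 called 0 in either direction, and by FDR alone 21 were lower and 7 higher. The difference between the lines passed for 26 of 40 genes, 23 of them higher in THP1, beside 42.2% and 22.8% of all genes.

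Genes that supply arginine, ornithine, glycine and methyl groups were called lower in Molm13 for 6 of 13 tested, beside 11.3% of all genes. None was called in THP1, where 6.22% of all genes were. PSAT1, an enzyme of serine synthesis from which glycine is made, had 4500 and 4327 reads in Molm13 shCtrl and 1344 and 1615 in shPRMT9. In THP1 it had 2607 and 2810 against 3196 and 3039. Its log2 fold change was -1.58 in Molm13 (edgeR FDR 1.4e-34) and 0.30 in THP1. ODC1, which turns ornithine into putrescine, was at -0.94 and -0.39, and the arginine transporter SLC7A1 was at -0.92 and -0.10 (edgeR FDR in Molm13 8.4e-29 and 7.4e-28).

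Genes that use glutamine or handle glutamate were called lower in Molm13 for 6 of 11 tested, beside 11.3% of all genes. The direction was opposite to that of GLUL. None was called in THP1, where 6.22% of all genes were. ASNS, which makes asparagine with the amide nitrogen of glutamine, had 1712 and 1661 reads in Molm13 shCtrl against 474 and 617, and 510 and 579 in THP1 shCtrl against 644 and 638. Its log2 fold change was -1.63 in Molm13 (edgeR FDR 3.5e-28) and 0.33 in THP1. The transaminases GPT2 and GOT1 were at -1.29 and -1.17 in Molm13 (edgeR FDR 7.7e-27 and 1.4e-20) and at -0.41 and 0.20 in THP1.

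Transporters of glutamine and glutamate were called lower in Molm13 for 6 of 7, beside 11.3% of all genes, with a median log2 fold change of -0.88. None was called in THP1, where 6.22% of all genes were. SLC38A1, a sodium-coupled glutamine carrier, had 5631 and 5342 reads in Molm13 shCtrl and 2385 and 2665 in shPRMT9. Its log2 fold change was -1.12 in Molm13 (edgeR FDR 1.9e-31) and -0.39 in THP1. SLC3A2 and SLC7A5, the chains of an exchanger that can trade glutamine for large neutral amino acids, were at -1.02 and -0.999 in Molm13 (edgeR FDR 2e-27 and 3.3e-31) and at 0.15 and 0.06 in THP1. GLUL was thus higher in Molm13 while most of the listed transporters of its product fell.

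Adenylate kinases, which move phosphate between adenine nucleotides, held the 1 listed gene called higher in Molm13. GFPT1, which makes glucosamine 6-phosphate with glutamine, was also higher, at 0.34 (edgeR FDR 4.6e-09), below the fold limit. AK4, a mitochondrial member, had 130 and 138 reads in Molm13 shCtrl and 546 and 612 in shPRMT9, and 765 and 777 in THP1 shCtrl against 504 and 484. The log2 fold change was 2.11 ± 0.0896 in Molm13 (SE, edgeR FDR 2.3e-24) and -0.55 ± 0.0706 in THP1 (FDR 3.6e-07), and the lines differed by -2.65. Its mean RPKM of 0.884 in Molm13 shCtrl and 3.81 in THP1 shCtrl gives the same order between the shCtrl groups as CKB. AK1 was called lower in THP1, with 79 and 114 reads against 65 and 52 and a log2 fold change of -0.62 ± 0.196 (SE, edgeR FDR 0.012). That call did not hold with DESeq2 (FDR 0.2), without shCtrl library 2 (-0.40, FDR 0.22) or without shPRMT9 library 2 (-0.48, FDR 0.092).

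**Figure D2:**
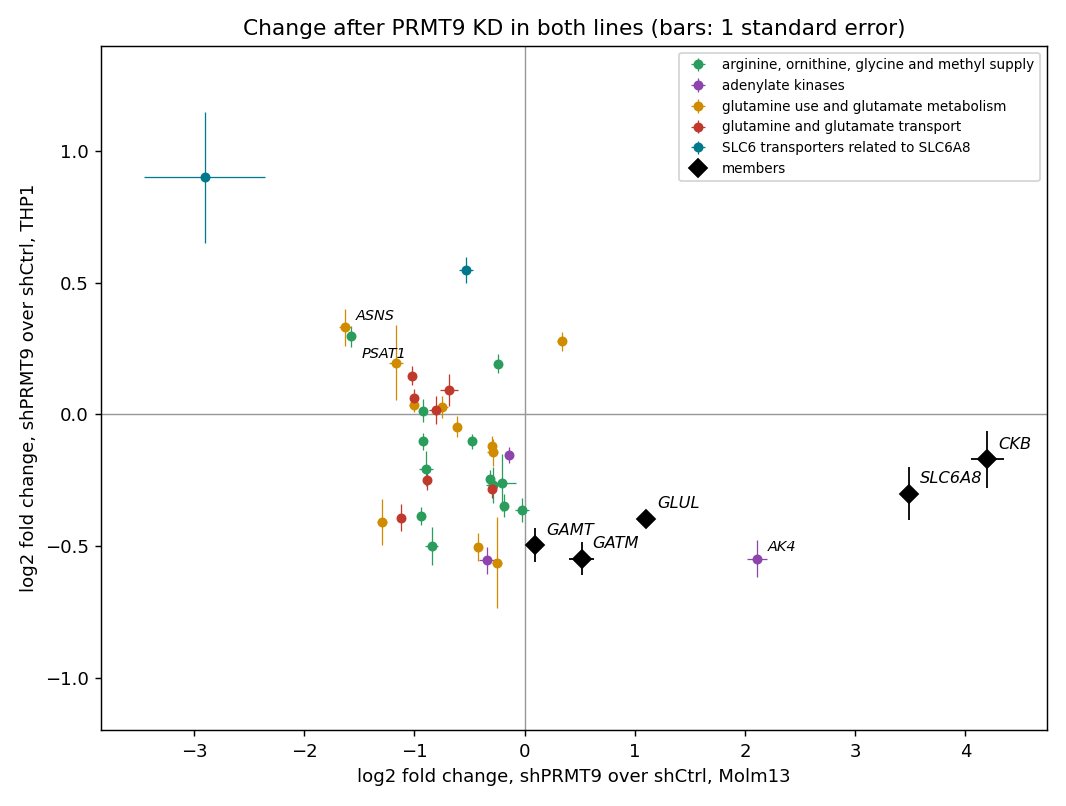
Log2 fold change after PRMT9 KD in Molm13 (horizontal axis) and THP1 (vertical axis) for 5 of the 6 genes (black diamonds) and the listed pathway genes tested in both lines (coloured points, by list), with bars of 1 SE. SLC6A8, CKB, GLUL and AK4 lie to the lower right, while ASNS and PSAT1 lie to the upper left.

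Transporters of the same family as SLC6A8 were tested for 2 of 4, and neither met the rule in either line. The taurine transporter SLC6A6 had a log2 fold change of -0.53 in Molm13 and 0.55 in THP1 (edgeR FDR 1.1e-09 and 3.1e-10), which is opposite to SLC6A8 in both lines and below the fold limit. The glycine transporter SLC6A9 had 17 and 22 reads in Molm13 shCtrl against 3 and 2 in shPRMT9, and 41 and 28 against 60 and 61 in THP1. Its log2 fold change was -2.90 ± 0.547 (SE) in Molm13 and 0.90 ± 0.248 in THP1, with an RPKM that stayed under the limit. It entered the Molm13 fit only through the shCtrl libraries and was added after its values were seen, so no FDR is given for it.

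Genes next to SLC6A8 and CKB were looked at after their values were seen. PNCK, a calmodulin-dependent kinase gene on the opposite strand at chrX:153669730-153689010, overlaps SLC6A8 by 912 bases as deposited. It had 3 and 4 reads in Molm13 shCtrl and 166 and 191 in shPRMT9, and none in any THP1 library. Its log2 fold change in Molm13 was 5.62 ± 0.276 (SE), from a control level of few reads. It entered the fit only through the shPRMT9 libraries, so no test is given. Whether the counting used strand is not given in the sources used here, so reads in the overlap cannot be told apart by gene. The exons of the 2 genes share 22 bases in GENCODE 29. With PNCK reads added to those of SLC6A8, an alternative chosen after seeing the data, the log2 fold change of SLC6A8 was 3.54 in Molm13 and -0.30 in THP1. BCAP31, the nearest tested gene downstream of SLC6A8, was at 0.07 ± 0.0369 in Molm13 (SE).

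RP11-600F24.7 (chr14:103525010-103529072), an unnamed gene on the same strand 1899 bases away from CKB, had 31 and 27 reads in Molm13 shCtrl and 129 and 124 in shPRMT9. The log2 fold change was 2.12 ± 0.195 in Molm13 (SE) and -0.14 ± 0.277 in THP1, given without a test as the gene was picked by its values. TRMT61A and MARK3, the other tested genes within 20 kb of CKB, were at -0.17 ± 0.0708 and -0.26 ± 0.0441 in Molm13 (SE). Within 20 kb, GATM had 1 neighbour in the fit, at -0.04, and GLUL had none. The 5 near GAMT lay between -1.23 and 0.06.

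**Figure D3:**
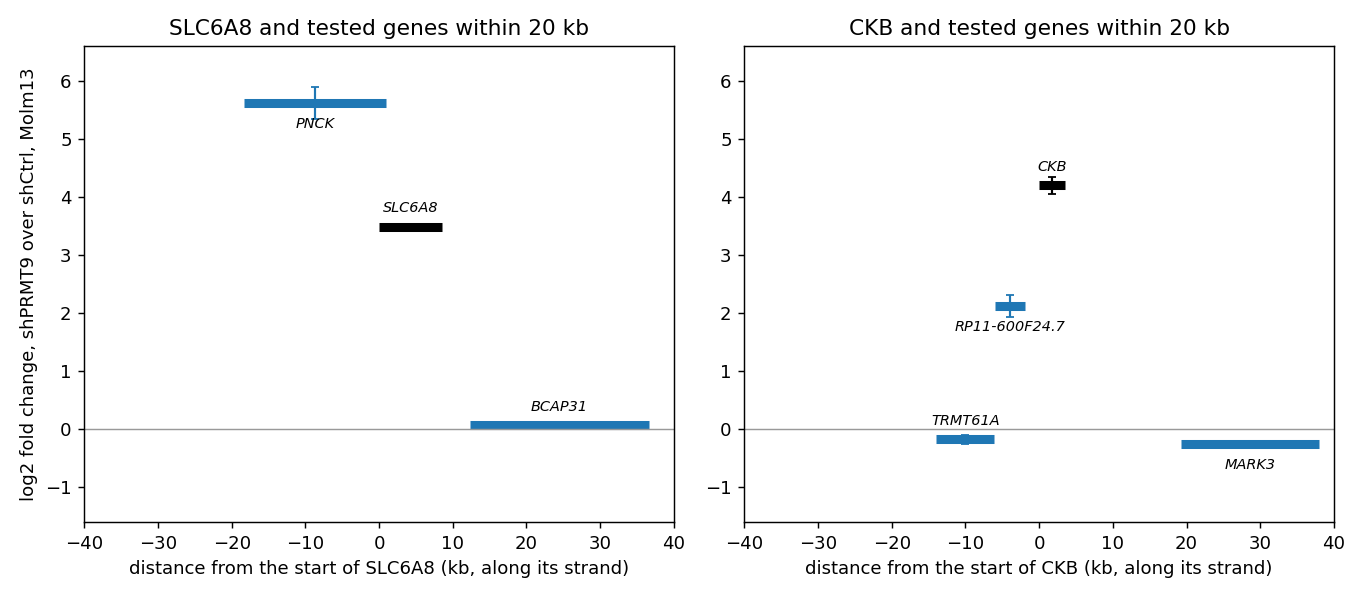
Log2 fold change in Molm13 (vertical axes, error bars of 1 SE) of SLC6A8, CKB and the tested genes within 20 kb, drawn at their distance in kb from the start of SLC6A8 (left) or CKB (right) along that gene's strand, with genes that reach past the edge cut off there. PNCK at 5.62 and RP11-600F24.7 at 2.12 stand beside SLC6A8 and CKB, and BCAP31 at 0.07 lies next to SLC6A8 on the other side. TRMT61A at -0.17 and MARK3 at -0.26 are the other tested genes near CKB.

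The pattern over the 8 libraries was also compared with that of 15173 other genes, by Pearson's r of log2 CPM and as a description, since the libraries form 4 groups. The genes most like SLC6A8 were ARID4A (r = 0.997), ETV1 (0.996) and F11R (0.995), with log2 fold changes in Molm13 of 0.81, 1.80 and 1.59 against 3.49 for SLC6A8. Those most like CKB were DIP2A, FCHO1 and MYADM, with r from 0.990 to 0.993 and log2 fold changes of 0.50, 0.92 and 1.26. For GLUL they were SGK223, LIX1L and BNIP3L, with r of 0.999 or above and log2 fold changes of 0.50, 0.41 and 0.99. Each of these named genes changed less in Molm13 than the one of the 3 chosen genes that it was most like. As r takes no account of the size of a change and the 3 were chosen for their rise, this is a description. Among the 3, r was 0.925 for SLC6A8 and GLUL, 0.504 for SLC6A8 and CKB and 0.147 for CKB and GLUL. In the shCtrl libraries SLC6A8 and GLUL were at a higher level in Molm13, and CKB in THP1.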

How the data were processed

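The 6 genes, the pathway list and the marker lists were chosen with earlier results of these data known. Per the labels, polyadenylated RNA libraries were made with a Kapa mRNA HyperPrep kit. The submitters' processing notes name hg38, TopHat2 2.0.8, HTSeq 0.11.2 and edgeR 3.30.3. The annotation and the strand setting of the counting are not given in the sources used here. The authors deposited raw counts per gene, which are integers and not normalized, in 1 table per line (57992 genes for Molm13, 58174 for THP1), the former with gene coordinates and exon lengths.

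The tools used from there on were edgeR 4.0.16 and DESeq2 1.42.0, with limma 3.58.1, under R 4.3.3. Each line was fitted alone (filterByExpr, TMM, quasi-likelihood test, Benjamini-Hochberg FDR over all genes tested), and a fit of all 8 libraries gave the difference between lines and between shCtrl groups. A called gene needed a fold above 1.5, FDR below 0.05 and RPKM above 1 in at least 1 library. For the difference and the shCtrl groups an FDR below 0.05 was used. SE is the absolute log2 fold change over the square root of F. RPKM is TMM CPM over the Molm13 table's exon length. Scripts were tested on simulated data. Named pathway genes were, per list and line, up to 3 called genes with the largest change, with CKM, GFPT1, SLC6A6 and SLC6A9 added after their values were seen. Other data of the study were not used here. Alternatives were DESeq2, library size alone, no filter, other call limits, a replicate block, and leaving out each library. Neighbours were taken within 20 kb, a window set with their values known. A further result is not reported here.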

Additional observations from a re-analysis of the deposited data

Results flagged for a closer look

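The response to PRMT9 KD differed between the lines, as log2 fold change in THP1 minus that in Molm13, for GAMT (-0.58) and GATM (-1.05), in each case by a test of the difference itself (edgeR interaction FDR 7.6e-08 and 3.4e-11). Among the listed pathway genes given by name, the difference was negative for AK4 (-2.65) and positive for ASNS (1.97), PSAT1 (1.89), GOT1 (1.38), SLC3A2 (1.18), SLC7A5 (1.07), GPT2 (0.90), SLC7A1 (0.83), SLC38A1 (0.74) and ODC1 (0.57). These genes were named for a large change within 1 line, which largely fixes a difference between the lines, so their values are a description. The test of GAMT and GATM was passed by 42.2% of all genes. For SLC6A8 (-3.77), CKB (-4.36) and GLUL (-1.49) the difference was the reason for their choice, and it is given without a test.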

How the results depend on the processing

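Of 599 values recomputed under an alternative, none changed direction and 565 kept both direction and side of the threshold or stayed near their first value. With FDR alone, the Molm13 calls numbered 11008 and the THP1 calls 6126, while a fold above 2 left 1302 and 400. Of the listed pathway genes, FDR alone gave 32 lower and 2 higher in Molm13 and 21 lower and 7 higher in THP1, and a fold above 2 gave 7 lower in Molm13 and 0 in THP1. Lower calls in THP1 were 2 with library size alone and 0 with DESeq2. The GLUL difference between lines was -1.53 with library size alone. Leaving out 1 library gave log2 fold changes of 1.07 to 1.13 for GLUL in Molm13, -0.43 to -0.37 for GLUL in THP1, -1.55 to -1.50 for its difference, -1.14 to -1.08 for its shCtrl level in THP1 over Molm13, 0.0198 to 0.18 for GAMT in Molm13 and 1 to 2 lower pathway calls in THP1. These fits leave 1 library in an arm, which is assumed to vary like the others. The cause of these shifts was not tested.

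Replicate numbers did not pair the libraries, as the deviations of same-numbered libraries correlated at -0.087 in Molm13 and -0.0146 in THP1. With a replicate block the calls were 3710 in Molm13, 1019 in THP1, 7965 for the difference and 15039 between shCtrl groups, and GAMT and GATM in Molm13 stayed at 0.10 and 0.52 (edgeR FDR 0.15 and 0.00017). The block changed no call of GAMT, GATM or PRMT9, nor the within-line calls of the pathway genes named except CKM, GFPT1, SLC6A6 and SLC6A9, for which it was not looked at by gene. With 2 libraries per group, small changes of low genes such as CKMT2 could not be measured.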
